A study of Arabidopsis thaliana with 8 samples.

Results

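Gene expression in shoots of Arabidopsis seedlings was compared between the arr1,10,12 mutant and the wild type after both had been given the synthetic cytokinin benzyladenine (BA). The comparison used the 2 mutant BA arrays and the 2 wild-type BA arrays, 4 of the 8 Affymetrix arrays of the series. The mutant carries lesions in the type-B response regulators ARR1, ARR10 and ARR12; the labels do not name the alleles. The BA groups had spent 1 h in liquid MS medium with 10 µM BA. The other groups, 2 mutant arrays and 2 wild-type arrays, had spent that hour in medium with DMSO, the solvent. All seedlings were 14 days old and grown in continuous white light. Roots were cut off and discarded before RNA extraction, per the treatment protocol, although the tissue label reads seedling. No label says whether the 2 samples of a group came from separate cultures, so p-values reflect no more than the spread of these samples, which may be technical.

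Cytokinins are sensed by histidine kinase receptors, which pass phosphate through shuttle proteins to response regulators in the nucleus. Type-B regulators such as ARR1, ARR10 and ARR12 are transcription factors that switch on the primary response genes once phosphorylated. Type-A regulators are among those primary targets and feed back to damp the pathway. A mutant that lacks several type-B regulators is therefore known for a weak transcriptional response to added cytokinin.

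The deposited value of a probe set is a ratio with no unit, so values can be set side by side between arrays and not between genes. Every genotype difference below is the log2 of mutant over wild type, after each array was centred on its median. Array files of the wild type carry 1 name prefix, and both mutant BA arrays carry another, so that genotype and whatever the prefix stands for cannot be told apart. The mutant DMSO replicate 1 array, which has yet another prefix, stood apart. Its 5′ over 3′ signal at 6 pairs of control probe sets had a median log2 of -1.51, against -0.01 to 0.15 on the other arrays. It was left out of the limma fit, which took 7 arrays, and results with all 8 arrays are given beside it. The 2 mutant BA arrays differed by more than 2-fold at 3.39% of probe sets, and the 2 wild-type BA arrays at 0.998%. ARR1, ARR10 and ARR12 have no probe set with a single gene name here, so the lesions could not be checked. Of the shoot markers, RCA, LHCB4.1, FMA and SPCH carry a symbol or synonym and were followed. The root markers EXPA7 and EXPA18, expansins of root hair cells, are the only 2 of 17 on the list whose probe set carries a symbol or synonym. List loci with a locus ID alone were left out. EXPA7 had ratios of 0.836 and 0.330 on the mutant BA arrays, against 1.33 and 1.84 on the wild-type BA arrays. EXPA18 had ratios of 0.906 and 0.378 on the mutant BA arrays, against 1.09 and 1.91 on the wild-type BA arrays. Both were lower on every mutant BA array than on either wild-type BA array. The arrays of the genotypes did not overlap, in either direction, on 56.6% of all probe sets. Log2 differences were -1.63 ± 0.42 for EXPA7 and -1.36 ± 0.44 for EXPA18 (SE), and neither passed the test (limma adjusted p = 0.0698 and 0.124). In RNA from whole shoots, fewer cells of a type and less RNA per cell cannot be told apart.

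Under BA, 1660 of 22746 probe sets passed the test at an adjusted p under 0.05, which is 7.30% (limma, Benjamini-Hochberg over all probe sets). The mutant was lower at 900 of them (3.96%) and higher at 760 (3.34%). Without centring the balance turned, with 810 lower and 937 higher. At 601 of the lower and 410 of the higher probe sets the difference was at least 2-fold, and at 164 and 78 it was at least 4-fold. The smallest difference that passed was 0.56 on the log2 scale. On all 1660 the arrays of the genotypes did not overlap, as they did not on 56.6% of all probe sets. A single gene name was available for 814 of the calls, 6.02% of the 13513 probe sets so named (457 lower, 3.38%, and 357 higher, 2.64%), and 161 carry a symbol or a descriptive synonym (9.36% of 1721). The number of calls depended on which arrays supplied the estimate of the spread. With all 8 arrays 38 probe sets passed (0.167%), 36 lower and 2 higher, and all 38 were among the 1660. With the 4 BA arrays alone 802 passed (3.53%), 787 of them among the 1660. Dropping a wild-type DMSO array gives this same BA fit, since neither DMSO group then adds to the estimate of the spread. Leaving out wild-type BA replicate 2 left 278 calls, leaving out wild-type BA replicate 1 left 673, and leaving out either wild-type DMSO array left 802. The lone array of a group was then assumed to vary like the other groups. Of the 161 genes with a symbol, 58 still passed when wild-type BA replicate 1 was dropped, 19 when replicate 2 was, 83 when a wild-type DMSO array was, and 1 with all 8 arrays.

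**Figure D1:**
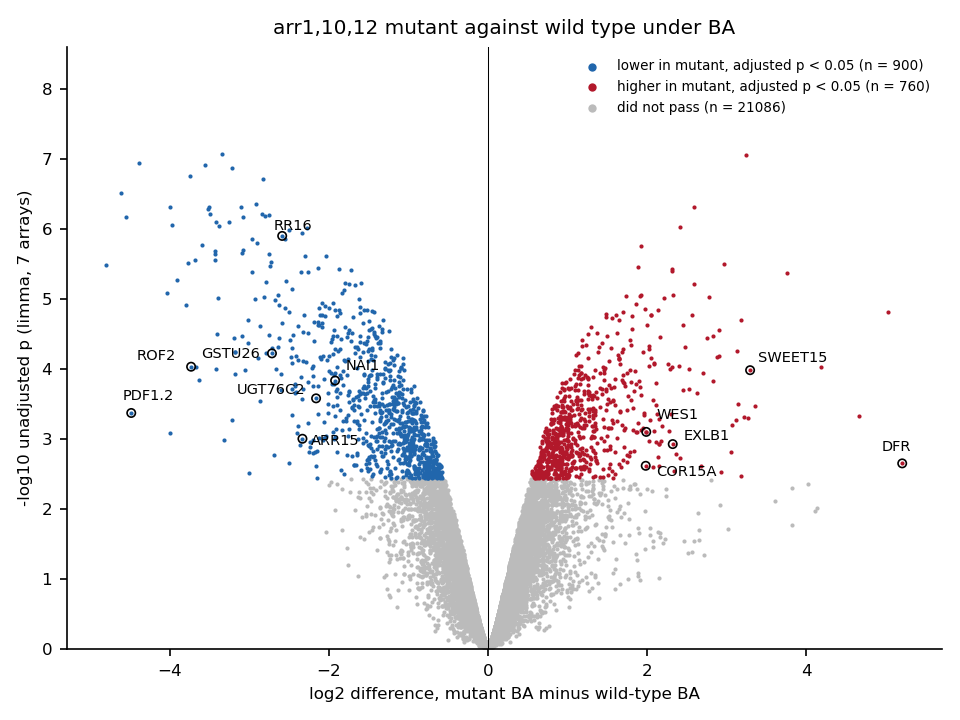
Each point is 1 of 22746 probe sets, placed by its log2 difference (mutant BA minus wild-type BA) and the -log10 of its unadjusted limma p in the 7-array fit. Blue points (900) were lower and red points (760) higher in the mutant at an adjusted p under 0.05, grey points did not pass, and circles mark genes named in the text.

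The cytokinin pathway genes that could be followed were lower in the mutant where they changed. RR16, a type-A response regulator, had ratios of 0.609 and 0.748 on the mutant BA arrays, against 3.93 and 3.85 on the wild-type BA arrays. Both wild-type BA arrays stood above every other array for this gene. The log2 difference was -2.58 ± 0.16 (SE; limma adjusted p = 0.000984, and 0.016 with all 8 arrays). ARR15, another type-A regulator, had ratios of 0.728 and 0.809 on the mutant BA arrays, against 6.16 and 2.23 on the wild-type BA arrays. Its mutant arrays were again the lower ones, and the wild-type replicates lay further apart. Its log2 difference was -2.33 ± 0.42 (limma adjusted p = 0.0237, and 0.144 with all 8 arrays), and it was -1.61 without wild-type BA replicate 1. ARR15 did not pass in limma with the 4 BA arrays alone (adjusted p = 0.0714), which is the same BA fit as dropping a wild-type DMSO array. RR16 and ARR15 are dim probe sets, whose ratios appear to be relative to a value above their own median. Whether their signal on the mutant arrays lay above background is not known here, so both differences may understate the gap. These were 2 of 10 type-A genes on the list and the only ones whose probe set carries a symbol or synonym. UGT76C2, a glucosyltransferase that inactivates cytokinins by N-glucosylation, had ratios of 0.544 and 0.896 on the mutant BA arrays, against 3.78 and 2.37 on the wild-type BA arrays. The mutant was lower here too, by 2.16 ± 0.31 log2 units (limma adjusted p = 0.0122, 0.157 with all 8 arrays, and 0.0568 without wild-type BA replicate 1). UGT76C1, its neighbour with the same kind of activity, had overlapping ratios of 0.697 and 1.09 on the mutant BA arrays, against 0.965 and 0.723 on the wild-type BA arrays (log2 difference 0.00 ± 0.25). Among the type-B regulators that the lesions do not name, RR18 differed by -0.13 ± 0.13 and RR19 by 0.37 ± 0.21, and neither passed (limma adjusted p = 0.58 and 0.343). AZG1, a purine transporter, was not on the cytokinin lists and was chosen after its value was seen, because it carries a symbol and passed. It was at 1.0 and 0.995 on the mutant BA arrays, against 1.62 and 2.07 on the wild-type BA arrays, a log2 difference of -0.93 ± 0.17 (limma adjusted p = 0.0239). No receptor or phosphotransfer gene of the list had a probe set with a symbol or synonym, and any with a locus ID alone were left out.

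In DMSO the type-A genes had ratios of 0.507 to 0.926 on all 4 arrays, below either wild-type BA array. RR16 had 0.618 and 0.647 on the mutant DMSO arrays, against 0.926 and 0.783 on the wild-type DMSO arrays. ARR15 had 0.618 and 0.507 on the mutant DMSO arrays, against 0.635 and 0.613 on the wild-type DMSO arrays. UGT76C2 had 0.973 and 0.498 on the mutant DMSO arrays, against 1.33 and 1.03 on the wild-type DMSO arrays. The genotype difference under BA exceeded that under DMSO for RR16 by -2.17 log2 units (limma adjusted p = 0.0311), a difference that did not pass for ARR15 or UGT76C2 (0.306 and 0.566).

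**Figure D2:**
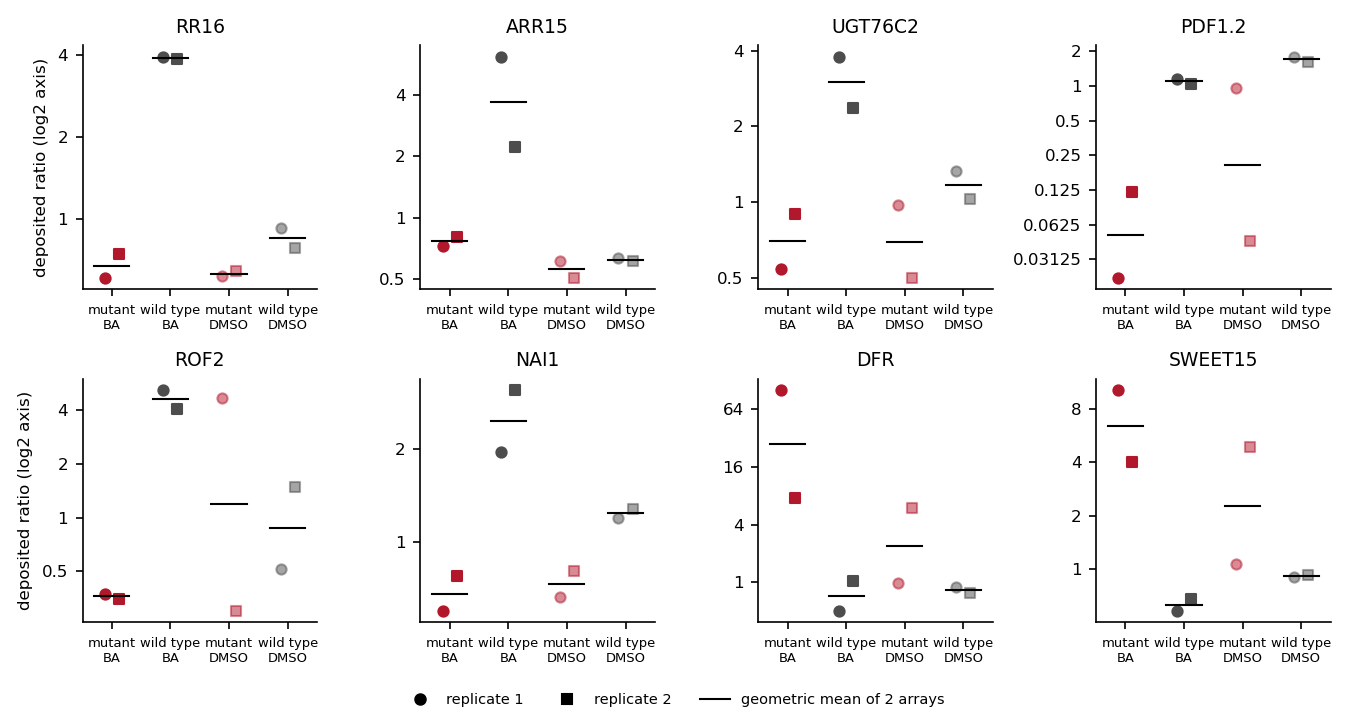
Deposited ratios (log2 axis, each panel on its own scale) of 8 genes on all 8 arrays, with mutant groups in red and wild-type groups in grey; circles are replicate 1, squares replicate 2 and lines the geometric mean of the 2 arrays. RR16 reached 3.93 and 3.85 in wild type under BA and stayed under 1 in the other groups, whereas DFR differed widely between the mutant BA replicates (101 and 7.54).

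The 15 genes with the largest deficits in the mutant under BA had log2 differences of -4.55 to -3.21. Of these, 12 carry a locus ID alone in the tables used here. The lowest was AT5G47980, at 0.570 and 0.522 on the mutant BA arrays, against 9.43 and 15.9 on the wild-type BA arrays. Wild-type seedlings under BA were above all other groups for it on both replicates (log2 difference -4.55 ± 0.25, limma adjusted p = 0.00077, and 0.0374 with all 8 arrays). AT4G11190 followed the same course, at 0.676 and 0.378 on the mutant BA arrays, against 5.65 and 8.04 on the wild-type BA arrays (log2 difference -3.79 ± 0.33, adjusted p = 0.0374 with all 8 arrays). AT1G07050 was at 0.420 and 0.280 on the mutant BA arrays, against 4.13 and 3.06 on the wild-type BA arrays (log2 difference -3.43 ± 0.24, adjusted p = 0.0474 with all 8 arrays). These 3 were the only ones of the 15 to pass with all 8 arrays. The named members were the defensins PDF1.2 and PDF1.2b and the heat-induced ROF2. On mutant DMSO replicate 2, each of the 15 lay below both wild-type DMSO arrays, and 10 passed the test under DMSO as well. On mutant DMSO replicate 1, 12 of the 15 did so. Without wild-type BA replicate 1, 11 of the 15 still passed, and without replicate 2, 10.

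The heat shock and chaperone list was added later than most lists and holds 24 loci. Of its 5 genes measured with a symbol or synonym, 4 (80%) were lower in the mutant and none was higher. Over all probe sets with a symbol or synonym 9.36% passed, in either direction. The median log2 difference of the 5 was -2.15, against 0.06 over all probe sets. ROF2, a peptidyl-prolyl isomerase of the FKBP family, had ratios of 0.374 and 0.351 on the mutant BA arrays, against 5.24 and 4.07 on the wild-type BA arrays (log2 difference -3.73 ± 0.45, limma adjusted p = 0.00748). Hop3, the co-chaperone that joins Hsp70 to Hsp90, had ratios of 0.615 and 0.593 on the mutant BA arrays, against 2.93 and 3.62 on the wild-type BA arrays (log2 difference -2.49 ± 0.26). Fes1A, a partner of cytosolic Hsp70, had ratios of 0.402 and 0.653 on the mutant BA arrays, against 2.31 and 2.07 on the wild-type BA arrays (log2 difference -2.15 ± 0.41). In each case both wild-type BA arrays were above both mutant BA arrays, and the genotypes did not overlap on any call. The chaperone Hsp70-2 was lower by 1.51 ± 0.18 log2 units, and the small heat shock gene ATHSP22.0 was at 0.659 and 0.647 on the mutant BA arrays, against 0.552 and 0.579 on the wild-type BA arrays and did not pass. In DMSO these genes were uneven. ROF2 was at 4.72 and 0.299 on the mutant DMSO arrays, against 0.519 and 1.48 on the wild-type DMSO arrays. The array with the low 5′ over 3′ ratio thus held the highest ROF2 value in DMSO. None of the 4 passed with all 8 arrays (adjusted p from 0.205 to 0.358), 3 passed without wild-type BA replicate 1, and 1 without replicate 2.

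The ER body is an endoplasmic reticulum compartment of Brassicaceae seedlings that stores defensive beta-glucosidase. The ER body list, added later than most lists, holds 19 loci, jacalin-related lectins among them. Of its 7 probe sets with a symbol or synonym, 5 were lower (71.4%) and none was higher (median log2 difference -1.22). Among all probe sets with a symbol or synonym 9.36% passed. NAI1, the bHLH factor needed to form ER bodies, was at 0.595 and 0.775 on the mutant BA arrays, against 1.96 and 3.12 on the wild-type BA arrays. NAI2, a structural protein of ER bodies, was at 0.828 and 0.837 on the mutant BA arrays, against 1.92 and 1.99 on the wild-type BA arrays. PYK10, the beta-glucosidase they hold, was at 0.700 and 0.552 on the mutant BA arrays, against 1.30 and 1.37 on the wild-type BA arrays. The genotypes did not overlap on any of the 3, as on every call, and the log2 differences were -1.92 ± 0.25, -1.29 ± 0.15 and -1.16 ± 0.16 (limma adjusted p = 0.00906, 0.00681 and 0.0123). The jacalin-related lectins JAL33 and JAL34 were lower by 1.22 ± 0.14 and 1.29 ± 0.16 log2 units, and JAL22 and JAL23 did not pass (-0.12 ± 0.16 and -0.01 ± 0.16). In DMSO, JAL33 alone passed, in the same direction. The 5 lay below both wild-type DMSO arrays on mutant DMSO replicate 2. None of the 5 passed with all 8 arrays (lowest adjusted p 0.0566, for JAL33), 4 passed without wild-type BA replicate 1 and 1 without replicate 2. PYK10 is best known from roots, and the root markers EXPA7 and EXPA18 had log2 differences of -1.63 and -1.36 that did not pass; their part in the result was not tested.

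Of 7 defence genes that passed and are named here, 6 were lower and 1 was higher. Some were chosen after their values were seen, so the balance comes in part from the choice. It also counts PDF1.2 and PDF1.2b separately. Calls with a symbol or synonym were lower in 95 cases and higher in 66. PDF1.2, a defensin induced by jasmonate with ethylene, had ratios of 0.0215 and 0.121 on the mutant BA arrays, against 1.15 and 1.05 on the wild-type BA arrays. PDF1.2b, a close paralogue whose probe set may share signal with it, had ratios of 0.0322 and 0.182 on the mutant BA arrays, against 1.11 and 1.24 on the wild-type BA arrays. Both mutant BA replicates lay far below the wild type, and they were also unlike each other. The log2 differences were -4.48 ± 0.69 and -4.0 ± 0.69 (limma adjusted p = 0.0152 and 0.0215). In DMSO, PDF1.2 was at 0.954 and 0.0453 on the mutant DMSO arrays, against 1.79 and 1.61 on the wild-type DMSO arrays, so that its 2 mutant arrays did not repeat each other. PDF2.1 was lower as well (-1.84 ± 0.23), while PDF1.4, PDF2.5 and LCR67 did not pass. That made 3 of 6 defensins lower (50%), where 9.36% of probe sets with a symbol or synonym passed. None of the 3 passed with all 8 arrays, 1 passed without wild-type BA replicate 1, and 0 without replicate 2. ORA47, a jasmonate-induced transcription factor, was at 0.965 and 1.01 on the mutant BA arrays, against 2.29 and 2.48 on the wild-type BA arrays (log2 difference -1.33 ± 0.13, limma adjusted p = 0.00423). Osmotin OSM34 was at 0.468 and 0.482 on the mutant BA arrays, against 1.04 and 1.12 on the wild-type BA arrays (log2 difference -1.25 ± 0.23). The thionin THI2.1 went the other way, at 1.98 and 1.43 on the mutant BA arrays, against 0.663 and 0.627 on the wild-type BA arrays (log2 difference 1.33 ± 0.20, limma adjusted p = 0.0142). GRX480, a glutaredoxin that responds to salicylate, was lower under BA, at 0.648 and 0.758 on the mutant BA arrays, against 1.24 and 1.5 on the wild-type BA arrays (log2 difference -1.02 ± 0.16, limma adjusted p = 0.0152). In DMSO it was the mutant that was higher, at 3.83 and 2.27 on the mutant DMSO arrays, against 0.696 and 0.728 on the wild-type DMSO arrays.

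The UDP-glycosyltransferases, which attach sugars to hormones and small metabolites, held the most calls of the families followed, and also the most probe sets. Of 47 probe sets 17 passed (36.2%), 13 lower and 4 higher, and the family median was -0.06. Among all probe sets with a symbol or synonym 9.36% passed. By share, the heat shock (80%), ER body (71.4%) and defensin (50%) groups lay higher, though the heat shock and ER body lists were added later than most lists. The lower members were UGT76E11, UGT76E12, UGT73C1, UGT76C2, UGT72E2, UGT73B5, UGT73B1, UGT73B4, UGT84A3, UGT84A4, UGT74B1, UGT76D1 and UGT72E3, with log2 differences of -2.62 to -1.06. UGT76E11 was at 0.380 and 0.706 on the mutant BA arrays, against 3.09 and 3.04 on the wild-type BA arrays. UGT73B4 was at 0.736 and 0.654 on the mutant BA arrays, against 1.99 and 2.12 on the wild-type BA arrays. UGT73B5 was at 0.639 and 0.696 on the mutant BA arrays, against 2.51 and 2.18 on the wild-type BA arrays. Wild-type BA arrays were the higher pair under BA in all 3. On mutant DMSO replicate 1, UGT73B5 (5.12) and UGT73B4 (3.46) had their highest value of all 8 arrays. The same held for UGT73B1 (2.85) and UGT72E2 (2.15), and not for the other lower members. UGT72E2 and UGT72E3 glucosylate monolignols, the building blocks of lignin, and UGT74B1 makes desulfoglucosinolates on the way to glucosinolates. The higher members were UGT72B3, UGT71C2, UGT85A4 and UGT72E1. UGT72B3 was at 1.43 and 1.75 on the mutant BA arrays, against 0.565 and 0.389 on the wild-type BA arrays (log2 difference 1.70 ± 0.21, limma adjusted p = 0.00829). UGT71C2 was at 1.52 and 2.52 on the mutant BA arrays, against 0.721 and 0.660 on the wild-type BA arrays (log2 difference 1.45 ± 0.23, limma adjusted p = 0.017). With all 8 arrays none of the 47 passed (lowest adjusted p 0.0867, for UGT76E12). Without wild-type BA replicate 2, 5 were lower and 0 higher, and without replicate 1, 10 and 2.

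**Figure D3:**
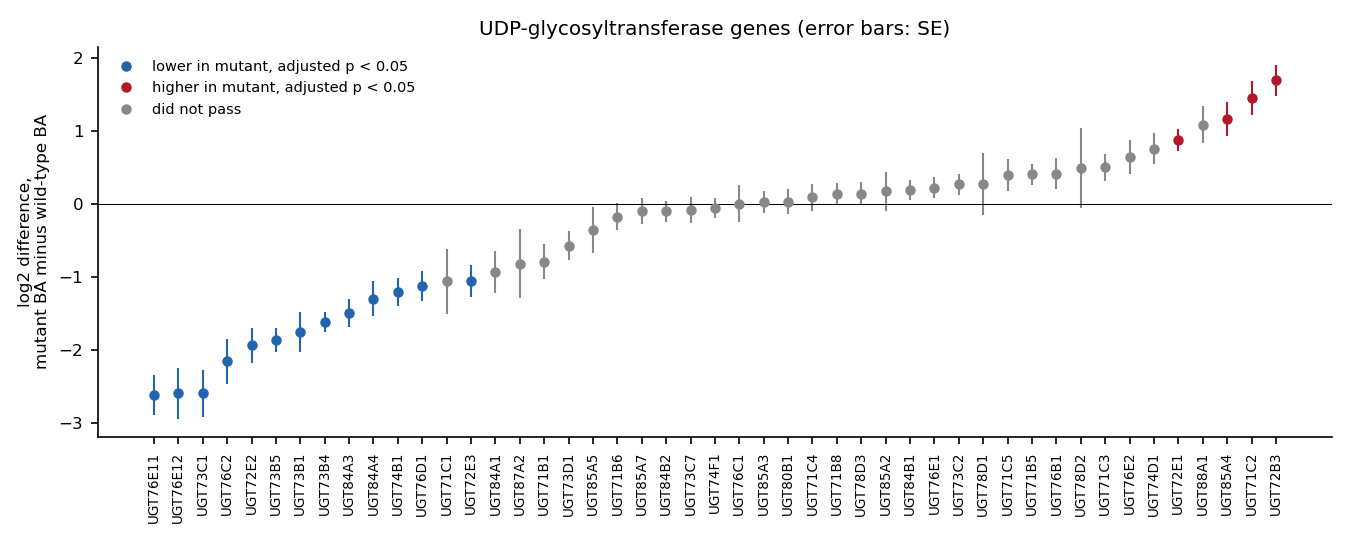
Log2 difference (mutant BA minus wild-type BA) with its SE for the 47 UDP-glycosyltransferase probe sets, ordered from lowest to highest. The 13 blue members run from -2.62 (UGT76E11) to -1.06 (UGT72E3), the 4 red ones from 0.88 (UGT72E1) to 1.70 (UGT72B3), and the grey ones did not pass.

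Other enzymes of specialised metabolism gave fewer calls. Among 13 glutathione S-transferases, detoxifying enzymes, 3 were lower and 1 higher (30.8% called, against 9.36% of probe sets with a symbol or synonym). GSTU26 was at 1.1 and 0.617 on the mutant BA arrays, against 4.57 and 5.91 on the wild-type BA arrays (log2 difference -2.71 ± 0.30, limma adjusted p = 0.00596, and 0.0539 with all 8 arrays). GSTU22 and GSTF4 were lower by 1.12 ± 0.15 and 0.65 ± 0.13 log2 units, and GSTU27 was higher by 1.07 ± 0.22. Among 24 cytochrome P450s, 4 were lower (CYP71B37, CYP718, CYP84A4 and CYP71B6, at -1.63 to -0.69) and CYP78A9 was higher (0.90 ± 0.15), a called share of 20.8%. Without wild-type BA replicate 2, 0 members of either family passed. AER, an alkenal reductase that removes reactive aldehydes, was at 0.631 and 0.799 on the mutant BA arrays, against 1.69 and 1.91 on the wild-type BA arrays (log2 difference -1.4 ± 0.18).

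Genes chosen after their values were seen, because they carry a symbol and passed, add to this. TPS-CIN, a terpene synthase that makes cineole, was at 0.341 and 0.286 on the mutant BA arrays, against 1.61 and 2.23 on the wild-type BA arrays (log2 difference -2.66 ± 0.32, limma adjusted p = 0.00765). FACT, which links fatty alcohols to caffeic acid, was at 0.321 and 0.179 on the mutant BA arrays, against 1.17 and 1.41 on the wild-type BA arrays (log2 difference -2.48 ± 0.28). BCAT4, an aminotransferase that starts the chain elongation of methionine for glucosinolates, was at 0.193 and 0.357 on the mutant BA arrays, against 1.24 and 1.28 on the wild-type BA arrays (log2 difference -2.32 ± 0.27). All 3 were lower on both mutant arrays. F6'H1, the hydroxylase of scopoletin synthesis, was lower by 1.55 ± 0.21 log2 units and NAMT1, a nicotinate methyltransferase, by 1.65 ± 0.18. AOP1, related to the enzymes that modify glucosinolate side chains, was higher, at 1.91 and 1.18 on the mutant BA arrays, against 0.594 and 0.520 on the wild-type BA arrays (log2 difference 1.38 ± 0.25). MGL, which breaks down methionine, was also higher, at 2.60 and 1.5 on the mutant BA arrays, against 0.664 and 0.671 on the wild-type BA arrays (log2 difference 1.51 ± 0.25).

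Some lower genes known from root development were gathered after their values were seen, so their shared direction comes from the choice. The root marker list itself gave 0 calls of 2 in limma (2 with an unadjusted p under 0.05). UPB1, a bHLH factor of the root tip that controls peroxidase genes, was at 0.280 and 0.483 on the mutant BA arrays, against 1.06 and 2.09 on the wild-type BA arrays (log2 difference -2.08 ± 0.37, limma adjusted p = 0.0241). The MADS-box genes AGL42 and AGL21 were lower by 1.71 ± 0.17 and 1.08 ± 0.16 log2 units, the only 2 of 42 MADS-box probe sets that passed. GSO1, a receptor kinase of the root barrier and embryo surface, was lower by 1.2 ± 0.16. Of 7 class III peroxidases with a symbol or synonym, PRX71 was at 0.242 and 0.661 on the mutant BA arrays, against 1.64 and 2.00 on the wild-type BA arrays and PRX72 at 0.871 and 0.541 on the mutant BA arrays, against 1.35 and 1.61 on the wild-type BA arrays. Those 2 were lower (-2.23 ± 0.42 and -1.16 ± 0.25), and the other 5 did not pass. That is 28.6% of the 7, where 9.36% of probe sets with a symbol or synonym passed. The peroxidase list was added later than most lists. The other 5 ran from -0.19 (AT2G41480) to 0.97 (PRXR1), and the median of the 7 was 0.33. The part of the EXPA7 and EXPA18 values in these differences was not tested. With all 8 arrays none of these 6 genes passed (adjusted p from 0.141 to 0.416).

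Cell wall genes split between directions. Called shares were 16.7% of expansins, 20% of GH9 endoglucanases, 13.6% of trichome birefringence-like probe sets and 11.1% of XTH probe sets. Among all probe sets with a symbol or synonym 9.36% passed. Among 18 expansins, which loosen walls, EXPA15 was at 0.981 and 0.550 on the mutant BA arrays, against 1.70 and 2.93 on the wild-type BA arrays and EXPA4 at 0.782 and 0.743 on the mutant BA arrays, against 1.84 and 2.25 on the wild-type BA arrays. These 2 were lower (-1.66 ± 0.35 and -1.47 ± 0.17). EXLB1, an expansin-like gene, was higher, at 3.70 and 1.36 on the mutant BA arrays, against 0.428 and 0.434 on the wild-type BA arrays (log2 difference 2.33 ± 0.43, limma adjusted p = 0.0261). Of 15 GH9 endoglucanases, GH9C2, GH9C1 and GH9B13 were lower (-1.5, -1.02 and -1.0). Of 22 trichome birefringence-like probe sets, whose proteins acetylate wall polysaccharides, TBL36 was lower (-1.92 ± 0.24) and TBL38 and TBL45 were higher (1.84 ± 0.25 and 2.02 ± 0.22). TBL40, listed by its locus AT2G31110, was higher on both of its probe sets (2.90 and 2.34). The pectin methylesterase PME41 was at 2.31 and 2.24 on the mutant BA arrays, against 0.482 and 0.700 on the wild-type BA arrays (log2 difference 1.91 ± 0.26), and XTH16, a xyloglucan-remodelling enzyme, was higher by 1.33 ± 0.21. None of these genes passed with all 8 arrays.

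**Figure D4:**
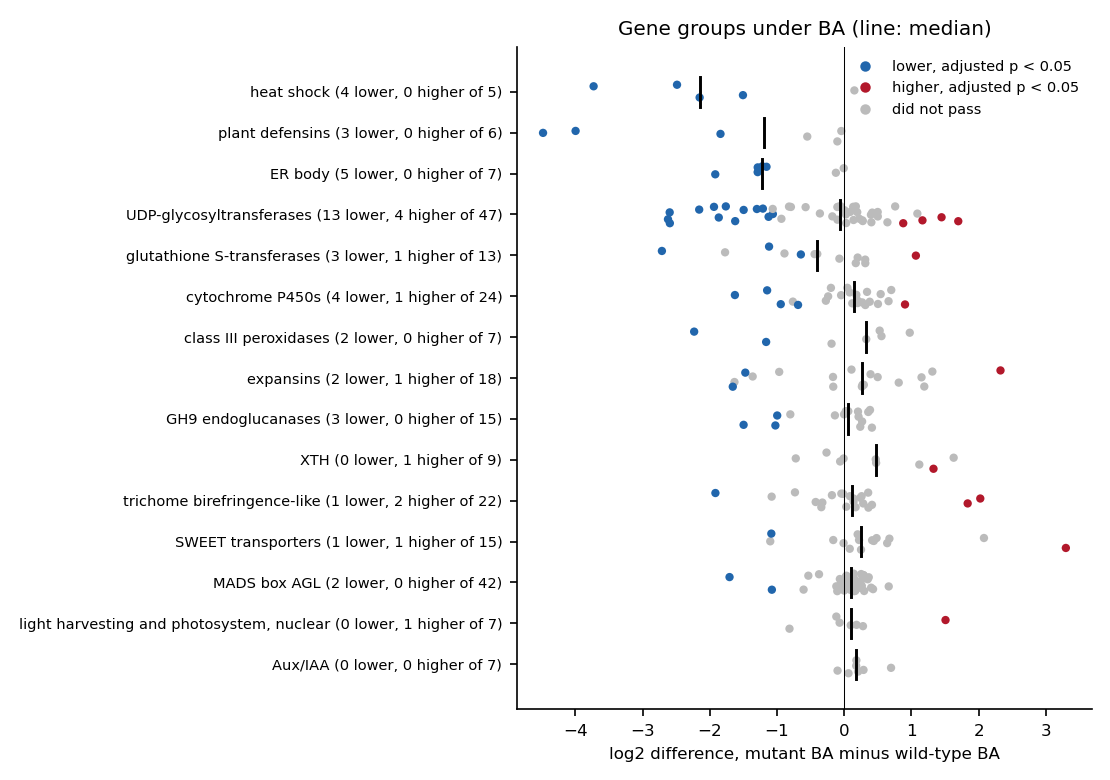
Log2 difference (mutant BA minus wild-type BA) of every probe set in 15 gene groups, with the count that passed in each direction beside the name and a black line at the median. The heat shock, defensin and ER body medians lie at -2.15, -1.2 and -1.22, and those of the other groups between -0.40 and 0.47.

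The 15 genes with the largest excess in the mutant had log2 differences of 2.34 to 5.21, and 12 of them carry a locus ID alone. AT1G80130 was at 48.0 and 16.5 on the mutant BA arrays, against 0.762 and 0.907 on the wild-type BA arrays. The mutant arrays were above both wild-type arrays by a wide margin and also unlike each other (log2 difference 5.03 ± 0.45, limma adjusted p = 0.00343). AT5G01740 was at 3.75 and 2.59 on the mutant BA arrays, against 0.272 and 0.181 on the wild-type BA arrays (log2 difference 3.76 ± 0.28, limma adjusted p = 0.00166). SWEET15, a sucrose exporter also known as the senescence gene SAG29, was at 10.3 and 4.02 on the mutant BA arrays, against 0.582 and 0.678 on the wild-type BA arrays (log2 difference 3.3 ± 0.40, limma adjusted p = 0.00774). The mutant was the higher genotype on both replicates of each. On mutant DMSO replicate 2, 12 of the 15 lay above both wild-type DMSO arrays and 4 passed the test under DMSO, whereas on mutant DMSO replicate 1 only 5 did so. None of the 15 passed with all 8 arrays, 11 passed without wild-type BA replicate 1 and 8 without replicate 2.

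Of 3 anthocyanin genes with a symbol or synonym, 1 passed (33.3%) and was higher in the mutant, where 9.36% of all probe sets with a symbol or synonym passed. DFR, the reductase at the entry to anthocyanin synthesis, was at 101 and 7.54 on the mutant BA arrays, against 0.502 and 1.02 on the wild-type BA arrays. UF3GT, which adds a sugar to anthocyanins, was at 19.5 and 1.98 on the mutant BA arrays, against 0.396 and 0.452 on the wild-type BA arrays. Mutant BA replicate 1 was the high array for both, and replicate 2 also exceeded the wild type. DFR passed (5.21 ± 1.08, limma adjusted p = 0.0377) and UF3GT did not (3.82 ± 0.93, adjusted p = 0.06). Without mutant BA replicate 1 the DFR difference was 3.33. UGT78D2, a flavonoid glucosyltransferase, was at 2.58 and 0.697 on the mutant BA arrays, against 0.837 and 0.997 on the wild-type BA arrays and did not pass. Neither DFR nor UF3GT passed with all 8 arrays (adjusted p = 0.224 and 0.222), and DFR did not pass without wild-type BA replicate 1 or 2 (0.168 and 0.140).

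Of 7 genes grouped here under light and the chloroplast that passed, 6 were higher and 1 was lower. Some were chosen after their values were seen, so the balance comes in part from the choice. Calls with a symbol or synonym were lower in 95 cases and higher in 66. The nuclear photosystem group, taken whole, had a median log2 difference of 0.10, with 3 of 7 probe sets negative. FHL, which helps phytochrome A enter the nucleus, was at 4.91 and 2.78 on the mutant BA arrays, against 1.02 and 0.976 on the wild-type BA arrays (log2 difference 1.83 ± 0.27, limma adjusted p = 0.0142). AFR, an F-box protein of phytochrome A signalling, was at 0.967 and 1.01 on the mutant BA arrays, against 0.475 and 0.413 on the wild-type BA arrays (log2 difference 1.1 ± 0.15, limma adjusted p = 0.0105). PPDK, the pyruvate phosphate dikinase, was at 1.12 and 2.45 on the mutant BA arrays, against 0.467 and 0.481 on the wild-type BA arrays (log2 difference 1.75 ± 0.34). LHCB4.2, a minor antenna protein, was at 1.18 and 1.18 on the mutant BA arrays, against 0.592 and 0.269 on the wild-type BA arrays (log2 difference 1.51 ± 0.34), the only 1 of 7 nuclear photosystem probe sets to pass. The Rubisco activase RCA was higher by 0.56 ± 0.12, close to the smallest difference that passed, and the shoot markers LHCB4.1, FMA and SPCH did not pass (-0.07, -0.51 and 0.23). CaS, a calcium sensor of the thylakoid, was higher by 1.05 ± 0.16, whereas SAPX, the stromal ascorbate peroxidase, was lower by 0.96 ± 0.17. None of these 7 genes passed with all 8 arrays (adjusted p from 0.166 to 0.551) or without wild-type BA replicate 2. RCA and LHCB4.2 also did not pass after quantile normalization (adjusted p = 0.0623 and 0.0577) or with the 4 BA arrays (0.0849 and 0.108). Of 69 plastid-encoded probe sets 0 passed in limma (median log2 difference -0.02), and 6 had an unadjusted p under 0.05.

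Of 3 genes on the cold list with a symbol or synonym 1 passed under BA, and of 3 such early auxin genes 1 passed. Each is a share of 33.3%, where 9.36% of all probe sets with a symbol or synonym passed. COR15A, a chloroplast protein of cold and drought acclimation, was at 6.77 and 2.50 on the mutant BA arrays, against 1.04 and 0.963 on the wild-type BA arrays. The mutant replicates were both above the wild type (log2 difference 1.99 ± 0.42, limma adjusted p = 0.0396), and the gene did not pass without wild-type BA replicate 1 or 2 (0.144 and 0.200). In DMSO the gap was wider on both mutant arrays, at 0.872 and 4.12 on the mutant DMSO arrays, against 0.111 and 0.111 on the wild-type DMSO arrays. Its relatives COR15B and COR47 did not pass under BA (-0.32 ± 0.25 and 0.11 ± 0.19). Under DMSO all 3 were higher in the mutant in the 7-array fit (limma adjusted p = 0.00994 for COR15A, 0.0127 for COR15B and 0.0184 for COR47). COR27, a cold gene tied to the circadian clock that was not on the list and was chosen after its value was seen, was lower, at 0.541 and 0.741 on the mutant BA arrays, against 1.95 and 2.56 on the wild-type BA arrays (log2 difference -1.88 ± 0.21, limma adjusted p = 0.00583). WES1, a GH3 enzyme that conjugates auxin, was at 2.23 and 5.05 on the mutant BA arrays, against 0.840 and 0.785 on the wild-type BA arrays (log2 difference 1.99 ± 0.34, limma adjusted p = 0.021). GH3.3, of the same family, was at 1.47 and 5.12 on the mutant BA arrays, against 0.394 and 0.785 on the wild-type BA arrays and did not pass (adjusted p = 0.0687). Of 7 Aux/IAA probe sets, early auxin repressors, 0 passed in limma (median 0.18).

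Some genes passed also with all 8 arrays, the outlying DMSO array included. Of these 38 probe sets 12 have a single gene name and 26 do not. Beside RR16 and the loci given above they were AT4G03610, AT3G45700, AT4G11210, AT1G02360, AT3G59340, AT4G16146 and AT4G16680, all lower, and AT1G60060, which was higher. AT4G03610 was at 0.842 and 0.928 on the mutant BA arrays, against 5.50 and 5.94 on the wild-type BA arrays (log2 difference -2.75 ± 0.15, adjusted p = 0.0187 with all 8 arrays). AT3G45700 was at 0.715 and 0.841 on the mutant BA arrays, against 4.19 and 5.86 on the wild-type BA arrays (log2 difference -2.73 ± 0.19, adjusted p = 0.0374 with all 8 arrays). Wild-type BA arrays were the high pair for both, and the 4 DMSO arrays lay close to the mutant BA pair. AT1G60060 was at 2.00 and 2.20 on the mutant BA arrays, against 0.751 and 0.622 on the wild-type BA arrays (log2 difference 1.56 ± 0.14, adjusted p = 0.0374 with all 8 arrays). The 26 without a single gene name were lower in 25 cases, at -4.79 to -1.41.

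Genotype differences under BA were set beside those under DMSO, which share no array, although the fit has 1 estimate of the spread for all groups. Under DMSO 933 probe sets passed in the 7-array fit (4.1%), 438 lower (1.93%) and 495 higher (2.18%). With all 8 arrays 2 passed. Of the 900 probe sets lower under BA, 262 were also called lower under DMSO, which is 29.1% of the first list and 59.8% of the second. Of the 760 higher under BA, 153 were called higher under DMSO, 20.1% of the first list and 30.9% of the second. The 7-array DMSO contrast rests on 1 mutant array. On mutant DMSO replicate 2, 84.0% of the probe sets lower under BA were also below the wild-type DMSO mean (43.7% of all probe sets), with a median log2 difference of -0.75. On mutant DMSO replicate 1 it was 41.3% (36.1% of all probe sets), with a median of 0.20. For those higher under BA the shares above the wild-type mean were 82.5% and 35.3% (56.3% and 63.9% of all probe sets). The mutant DMSO replicates thus differed in how far they shared the direction seen under BA. Replicate 2 carries the same file-name prefix as the mutant BA arrays, and the part of the prefix in its resemblance to them was not tested.

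**Figure D5:**
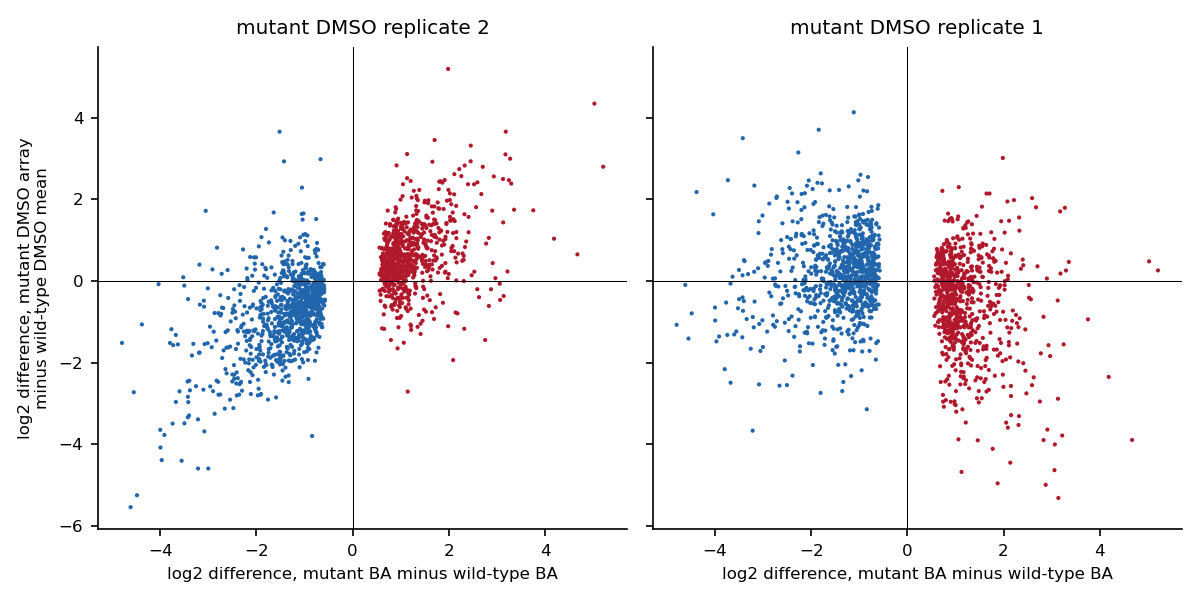
Each point is 1 of the 1660 probe sets that passed under BA (blue lower, red higher in the mutant), with its log2 difference under BA on the x axis and that of 1 mutant DMSO array minus the wild-type DMSO mean on the y axis, replicate 2 at left and replicate 1 at right. The blue cloud lies mostly below 0 at left (84.0%) and not at right (41.3%).

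The change of the genotype difference between treatments passed the test at 100 probe sets (0.440%), and at 0 with all 8 arrays, where 1958 had an unadjusted p under 0.05. Of the 100, 42 were lower and 28 higher in the mutant under BA. In 41 of the 42 and 26 of the 28 the difference under BA lay further in that direction than the one under DMSO, which could have the opposite sign. Among genes with a symbol these were RR16, ORA47 and GRX480 on the lower side and AFR on the higher. The GRX480 difference was -1.02 under BA and 1.65 under DMSO. ORA47 was at 0.965 and 1.01 on the mutant BA arrays, against 2.29 and 2.48 on the wild-type BA arrays, and at 0.790 and 1.5 on the mutant DMSO arrays, against 0.935 and 0.988 on the wild-type DMSO arrays. AFR was at 0.967 and 1.01 on the mutant BA arrays, against 0.475 and 0.413 on the wild-type BA arrays, and at 1.41 and 0.987 on the mutant DMSO arrays, against 1.4 and 1.65 on the wild-type DMSO arrays. Wild-type AFR was low under BA and high under DMSO, while its mutant values changed less. AT2G15020 was also low in wild type under BA and high under DMSO, at 1.30 and 1.11 on the mutant BA arrays, against 0.345 and 0.212 on the wild-type BA arrays, and at 0.273 and 0.894 on the mutant DMSO arrays, against 3.08 and 3.71 on the wild-type DMSO arrays.

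Called genes lay beside each other on the chromosome in some cases. Counting same-direction calls within 3 genes of each other in the RefSeq order of assembly TAIR10.1, 81 of 452 lower genes (17.9%) and 32 of 344 higher genes (9.30%) with a place in that order had such a neighbour. Of all 12293 genes placed, 9.72% had a lower neighbour and 7.53% a higher neighbour within that distance. No test was made of these shares. Runs of at least 3 were found 10 times among the lower genes and 0 times among the higher. Neighbours are often duplicates of each other, and their probes may share signal. One run held UGT76E12 and UGT76E11 with AT3G46700, at -2.60, -2.62 and -1.5. Another held AT3G45680, AT3G45700 and AT3G45710, at -2.96, -2.73 and -3.42, while AT3G45690 between them has a probe set that did not pass. AER stood between AT5G16960 and AT5G16980, at -1.97, -1.4 and -2.42. These runs were looked for after the values had been seen.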

How the data were processed

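RNA from 8 samples was hybridised to single-colour Affymetrix arrays, 2 for each of 4 groups set by genotype and treatment. The deposited values are a linear ratio per probe set. For 70.1% of probe sets the median over the 8 arrays is 1 within 0.005, so the ratio appears to be relative to that median. The other 6805 have medians of 0.35 to 0.995, and what their ratios are relative to is not given in the sources used here. How the authors summarised, scaled or background-corrected the deposited ratio is not given in the sources used here. Control probe sets were left out, and log2 ratios were centred on each array's median.

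One mean per group was fitted with limma 3.58.1 in R 4.3.3 to 7 arrays, without mutant DMSO replicate 1, leaving 3 residual degrees of freedom. The lone mutant DMSO array was assumed to vary like the other groups. P-values were adjusted by Benjamini-Hochberg over 22746 probe sets, and a call is an adjusted p under 0.05. The number of arrays limits the precision.

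Probe sets were named through the platform table and RefSeq (TAIR10.1). Genes named are those with the largest differences in each direction (up to 15), those called with all 8 arrays, list and family members, those with the strongest difference between treatments, and, chosen after values were seen, called genes with a symbol. The members and lists were chosen with earlier results of these data known. The heat shock, ER body and class III peroxidase lists were added later than the other lists. Of 100 list loci with a probe set of a single gene, 44 carry a symbol or synonym. The other 56 carry a locus ID alone and were left out of the list counts. Deviations of same-numbered arrays correlated at -0.17 to 0.12, so replicate numbers were not taken as pairs. Alternatives changed the arrays, centring, normalization, offset, dim-signal filter, weights, prior and replicate block. Nothing was tested about sequences, which were not used here.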

Additional observations from a re-analysis of the deposited data

Results flagged for a closer look

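The genotype difference under BA differed from that under DMSO at 100 probe sets by the interaction contrast of the 7-array limma fit, and at 0 with all 8 arrays (1958 with an unadjusted p under 0.05). Below are the genes with the lowest p for this contrast among those that passed under BA, each as the log2 genotype difference under BA minus that under DMSO. On the negative side were AT1G11670 at -2.68, AT5G54170 at -2.52, the glutaredoxin gene GRX480 at -2.67, AT4G16000 at -2.16 and AT4G03610 at -2.40. On the positive side were AT2G27420 at 3.86, AT2G15020 at 4.03, AT3G56290 at 2.58, AT4G24700 at 2.42 and AT5G42760 at 4.20. The DMSO side of each value rests on mutant DMSO replicate 2 alone.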

How the results depend on the processing

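The BA count of 1660 was 38 with all 8 arrays, 802 with the 4 BA arrays, and 278 to 2074 when 1 array was left out (278 without wild-type BA replicate 2); other settings of scale, offset, filter, weights and prior gave 1383 to 1747. The replicate block gave 0 calls under BA, 0 under DMSO and 0 for the difference of differences with 8 arrays; on the 4 BA arrays, chosen after seeing the data, it gave 119. Crossing the replicate numbers there gave 1836. The DMSO count of 933 was 2 with all 8 arrays, 615 after quantile normalization, 6 to 1836 when 1 array was left out, and 5462 when mutant DMSO replicate 1 stood in for replicate 2. The difference of differences, 100 probe sets, gave 0 with all 8 arrays, 0 to 540 when 1 array was left out, and 4840 with that exchange, which also took the shares of BA calls with the same sign under DMSO to 41.3% (lower) and 35.3% (higher). Quantile normalization took the higher share of DMSO calls to 34.3%, against 53.1%, and of difference calls to 49.5%, against 38.0%. The cause was not tested. Signs turned only for genes that had not passed. Over the fits with 1 array left out, UGT78D2 ran over -0.46 to 1.45, UGT76C1 over -0.31 to 0.32, a probe set of DME over -0.081 to 0.10, COR47 over -0.12 to 0.34, CML38 over -0.19 to 0.82, PDF1.4 over -0.82 to 0.61, LCR67 over -0.42 to 0.33 and COR15B over -0.69 to 0.042. UGT76C1 was -0.013 after quantile normalization and LCR67 was 0.014 without centring. Type-A genes have no value without dim probe sets, since both are dim.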
